A study of Homo sapiens with 6 samples.

Results

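Very wide open domains were defined in R1, an indisulam-resistant line of the human neuroblastoma cell line SK-N-AS, as autosomal ATAC-seq peaks at least 4000 bp wide in the first R1 library that overlapped a peak at least 4000 bp wide in the second. The domains were thus chosen by their R1 widths. The rule found 3869 domains among 337851 autosomal peaks of the first R1 list, which is 1.15% of them. Indisulam is a sulfonamide that recruits the splicing factor RBM39 to the DCAF15 ubiquitin ligase for degradation. Naïve cells came from a xenograft of a mouse given vehicle, R1 and R2 came from resistant xenografts taken after relapse while indisulam was being given, and each was expanded in culture, for which the labels state no treatment. Each of the 3 cell types was measured in 2 libraries of 100000 cells, and the labels tie each type to tumour-derived cells without saying that its libraries came from separate cultures, so the spread between them may be technical.

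ATAC-seq uses the transposase Tn5 to cut and tag DNA that is not wrapped tightly around nucleosomes, and runs of dense cutting are called as peaks. Most peaks span a short stretch around a promoter or an enhancer. Runs of several kilobases are known from CpG islands, from gene clusters in which promoters and enhancers lie close together, and from repeats whose copy number in the cells exceeds that in the reference genome. The width of a peak also grows with the depth of the library, because more depth lets weaker flanks pass the threshold.

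The sequences at the R1 summits of 6 domains show what kinds of DNA the set holds. Each is 120 bases on the plus strand of hg38. In the first 4, capitals mark CG dinucleotides, and in the last 2 they mark the 5-base unit ATTCC or its complement GGAAT. The chromosome 13 domain and the best covered domain were added after their values were seen.
Widest domain, over BAIAP2 and AATK, chr17:81101816-81101935: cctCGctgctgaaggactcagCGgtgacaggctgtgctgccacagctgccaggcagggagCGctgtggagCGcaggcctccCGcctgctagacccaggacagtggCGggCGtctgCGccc
Widest of the 10 best covered, over LRRC45, CENPX, RAC3 and DCXR, chr17:82023039-82023158: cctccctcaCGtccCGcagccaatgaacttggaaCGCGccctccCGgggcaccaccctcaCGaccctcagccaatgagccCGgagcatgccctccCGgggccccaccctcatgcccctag
Least covered, over GTPBP1 and SUN2, chr22:38739500-38739619: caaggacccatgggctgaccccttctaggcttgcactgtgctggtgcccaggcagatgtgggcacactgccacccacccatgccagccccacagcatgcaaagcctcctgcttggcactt
Covered more in R2 than in naïve cells by the widest gap between lists, in RASA3, chr13:114001730-114001849: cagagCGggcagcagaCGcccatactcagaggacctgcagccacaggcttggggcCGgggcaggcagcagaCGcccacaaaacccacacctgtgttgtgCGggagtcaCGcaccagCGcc
Most multi-copy, no gene, chr4:49103841-49103960: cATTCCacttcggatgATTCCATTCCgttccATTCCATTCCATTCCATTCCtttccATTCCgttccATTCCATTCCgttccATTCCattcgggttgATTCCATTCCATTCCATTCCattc
Best covered, no gene, chr5:49659865-49659984: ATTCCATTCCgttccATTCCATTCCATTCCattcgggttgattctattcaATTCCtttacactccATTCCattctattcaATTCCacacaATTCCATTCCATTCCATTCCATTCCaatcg
The widest and well covered domains on chromosome 17 carry many CG dinucleotides, the least covered one carries none in this stretch, and the last 2 are arrays of a 5-base satellite.

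The lists differed in depth, and every comparison of covered bases carries that difference. The fold of every peak recovered 1 background rate for each list, which was 7.94 and 5.43 tags in R1, 2.29 and 1.35 in naïve cells and 0.850 and 0.899 in R2. Tag density is given here as the pileup over that rate. The lowest density that was called was 2.27 and 2.58 in R1, 3.94 and 5.18 in naïve cells and 7.06 and 6.68 in R2. This height is that of a peak summit and not of every covered base. The share of a domain under a peak depends on it. The lists held 154926 and 115694 peaks in naïve cells, 340558 and 292030 for the R1 libraries and 67558 and 73484 for those of R2, and from 56 to 5960 of them were at least 4000 bp wide. The last peak of each of 24 chromosomes lay within its hg38 length.

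The domains covered 33.1 Mb, or 13.5% of all bases under a peak in the first R1 list. Their widths, on which they were chosen, had a median of 6772 bp in the first list and 5978 bp for the partner peak in the second. The middle of the distribution ran from 5140 bp at the lower quartile to 9827 bp at the upper, and 925 domains were at least 10 kb wide, 164 at least 20 kb and 16 at least 40 kb. The members nearest the limit were 4005, 4009 and 4014 bp wide, and the peaks just outside it were 3999, 3999 and 3998 bp wide. A further 2064 peaks of the first list were at least 4000 bp wide with no partner of that width, so the rule on the first list alone would give 5933 domains.

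Domains lay close together. When domains within 10 kb were chained, 2481 of them fell into chains of at least 2, and all 3869 formed 2158 chains. The longest chain held 20 domains with 248.7 kb between chr17:81799191-82123438. Since 203 domains shared their partner peak with another domain, neighbours are not independent of each other.

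The widest domains lay over genes of varied roles and, in 1 case, over none. The widest, chr17:81062326-81145156, was 82831 and 82734 bp wide in the R1 lists and lay over BAIAP2, an adaptor of actin remodelling at synapses, and AATK, a kinase. Its covered share was 99.0% and 98.2% in the naïve lists and 81.7% and 87.0% in the R2 lists, and a single peak of the first naïve list ran for 78168 bp. A domain of 74657 bp at chr12:34328678-34403334, near the centromere and without a protein-coding gene, was covered by 62.9% and 37.1% in naïve cells and by 14.3% and 14.9% in R2. The highest density in the first R1 list was 49.2 over BAIAP2 and AATK and 9.07 in the chromosome 12 domain, so domains of like width in that list stood at very different heights.

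Others of the 10 widest held MICALL2 and INTS1 on chromosome 7, in adjacent domains of 36045 and 41830 bp that met 1 partner peak of 77911 bp. MICALL2 is a regulator of junction assembly and INTS1 a subunit of the Integrator complex. The domain of ENGASE and the 3′ end of RBFOX3 was 51151 and 45314 bp wide, with a covered share of 97.1% and 89.7% in naïve cells and of 66.5% and 71.4% in R2.

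Some genes were filled by domains along most of their length. Domain bases fell in 2663 protein-coding genes, and those with the most were chosen after their values were seen. RBFOX3, which encodes the neuronal splicing regulator NeuN, held 374 kb in 26 domains, or 71.7% of the gene. MAD1L1, a spindle checkpoint gene, held 244 kb in 24 domains. The share of the gene inside domains was 99.6% for ADGRB1, an adhesion receptor of brain, 92.8% for RXRA, the retinoid X receptor alpha, and 91.6% for FBRSL1.

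The domains were GC-rich and lay near chromosome ends more often than the peaks of the list as a whole. Their median GC content was 60.0%, against 58.1% for peaks of 2000 to under 4000 bp and 54.3% for all peaks of the list. CpG dinucleotides had a median of 29.4 per kb in domains, 23.8 in the narrower class and 16.1 in all peaks. Of the domains, 44.1% lay within 5 Mb of a chromosome end, compared with 24.6% and 15.7%. These are descriptions over regions of 1 list, and cutting, amplification and mapping all vary with GC, whose part was not tested.

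Gene starts were common in domains. Per base, protein-coding starts were denser there than over the autosomes but less dense than in the narrower class or in all peaks. A protein-coding start lay inside 1159 domains (30.0%), against 17.6% of peaks of 2000 to under 4000 bp and 3.74% of all peaks, and a start of any gene lay inside 42.0% of the domains. Per 100 kb, however, domains held 4.42 protein-coding starts, the narrower class 7.37 and all peaks 5.92, with 0.693 over the autosomes, so the order of the classes was not the same per base as per region. In all, 1460 protein-coding genes had a start in a domain, which is 7.64% of those on the autosomes, and 776 long noncoding RNA genes did, which is 4.22%. There were 234 domains with at least 2 protein-coding starts and at most 6 in one. Of the 2710 domains with none, 2076 lay inside a protein-coding gene and 634 lay outside.

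By base, and counting protein-coding genes alone, 52.3% of the domains was intron, 21.6% exon, including 9.40% coding sequence, and 26.1% lay outside these genes. Over all autosomal bases the shares were 41.5%, 3.80%, 1.24% and 54.7%. The bases of the domains that the first R2 list still covered had a GC content of 63.7% and 40.5 CpG per kb, and 11.8% of them lay within 1000 bp of a start of such a gene, whereas the remaining bases had 58.8%, 27.8 per kb and 6.08%. The second R2 list gave 63.5%, 39.7 per kb and 11.5%, against 58.7%, 27.6 per kb and 6.01%. In both R2 lists the covered bases were thus richer in GC and CpG than the rest of the domains and more often near a start. The same held in both naïve lists, with a GC content of 61.6% against 56.2% in the first and 62.5% against 56.9% in the second.

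The letters of 4 short motifs were looked for on both strands, up to 50 bp from each R1 summit. The GC box, GGGCGG, was found in 28.5% of domains, in 20.7% of peaks of 2000 to under 4000 bp and in 7.34% of all peaks. The core of the CTCF motif, CCACNAGG, was found in 5.38%, 4.27% and 3.24%, and the E-box CACGTG in 3.41%, 3.04% and 2.42%. The AP-1 motif TGANTCA went the other way, with 2.46% of domains, 2.47% of the narrower class and 3.28% of all peaks. GC-rich letters are more frequent in GC-rich windows, and this part was not tested.

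The domains were spread unevenly over the chromosomes. Chromosome 17 held 571 of them (14.8%) but 5.72% of the peaks of the list, and chromosome 11 held 305 (7.88%) but 4.34% of peaks. Chromosome 18 held 9 domains (0.233%) with 2.04% of peaks, chromosome 3 held 26 (0.672%) with 2.91%, and chromosome 6 held 37 (0.956%) with 3.09%. The 1 Mb bins with most domains were on chromosome 7 from 1000001 to 2000000, with 54 domains, and on chromosome 17 from 79000001 to 80000000, with 53.

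**Figure D1:**
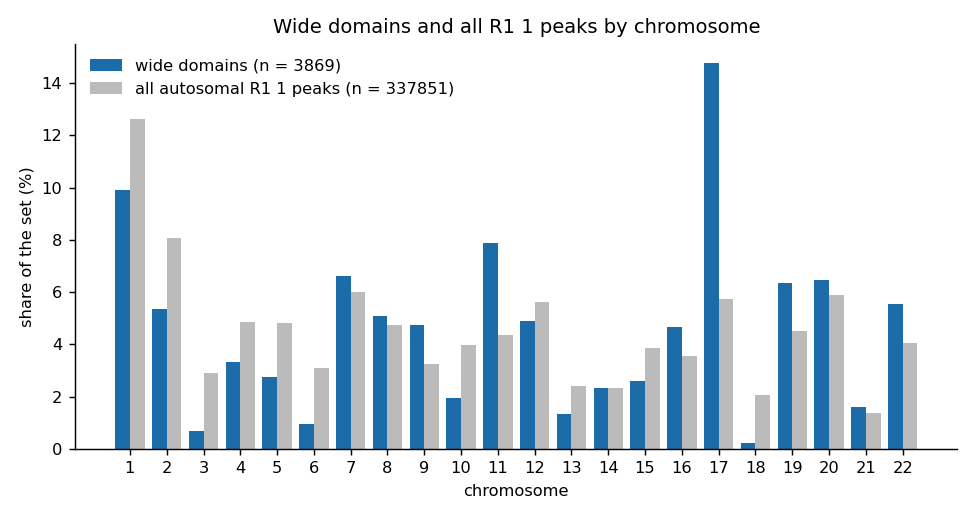
Share of the 3869 wide domains (blue bars) and of the 337851 autosomal peaks of the first R1 list (grey bars) on each chromosome, in percent. Chromosome 17 stands highest among the domains at 14.8%, against 5.72% of peaks, while chromosomes 3, 6 and 18 have fewer domains than their share of peaks.

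On chromosome 17 the domains were almost all beyond 30 Mb. The first 3 bins of 10 Mb held 4, 2 and 1 domains, the bins from 70000001 held 245 and 131, and the bins between held from 24 to 91. Windows of 100 kb with a GC content of 50 to 55% had 30.4% of their bases in domains on chromosome 17 from 30 Mb (97 windows) and 0.398% before 30 Mb (58 windows), against 8.59% on the other autosomes (1264 windows). At 45 to 50% GC the values were 4.08%, 0.0113% and 1.28%. So the split within the chromosome was present between windows of like GC content.

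The same windows separated other chromosomes. At 50 to 55% GC, the share of bases in domains was 19.4% on chromosome 20, 13.1% on chromosome 11, 9.78% on chromosome 22, 3.18% on chromosome 19 and 1.77% on chromosome 3. Windows within 5 Mb of a chromosome end had 12.2% and the others 8.84%, and at 45 to 50% GC they had 1.21% and 1.41%. The number of DNA copies of each segment in these cells was not measured here, and its part was not tested.

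**Figure D2:**
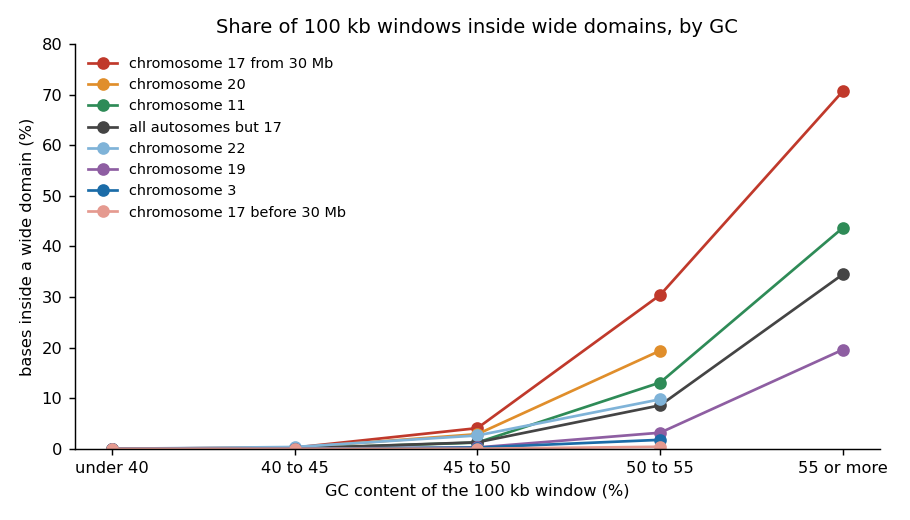
Percent of bases inside a wide domain in 100 kb windows (y axis) by GC content of the window (x axis), for chromosome 17 before and from 30 Mb, 5 other chromosomes and all autosomes but 17; points with fewer than 20 windows are left out. In windows of 50 to 55% GC, chromosome 17 from 30 Mb reaches 30.4%, and chromosome 17 before 30 Mb stays at 0.398%.

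The shares of each list on chromosome 17 give the other cells' values, which the rule did not use. Peaks from 30 Mb onward made up 7.76% and 8.81% of the autosomal peaks in the naïve lists, 4.80% and 5.204% for the R1 libraries and 10.6% and 10.3% for those of R2. Peaks before 30 Mb made up 0.437% and 0.455%, 0.923% and 0.953%, and 0.562% and 0.567%. The covered share of chromosome 17 domains was 87.3% and 74.9% in naïve cells and 45.8% and 49.5% in R2, which was above that of all domains in each of the 4 lists.

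Most domains were open in naïve and R2 cells as well, over a smaller part of their length. The naïve lists had a peak in 99.6% and 99.3% of the domains and the R2 lists in 95.5% and 96.5%. For peaks of 2000 to under 4000 bp these values were 92.4% and 84.3%, and 58.2% and 62.5%, and for all autosomal peaks of the first R1 list they were 28.3% and 19.9%, and 11.4% and 12.4%. A wider region offers more room for a peak. The share of domain bases under a peak was 76.3% and 61.4% in naïve cells, 31.6% and 34.7% in R2, and 97.4% in the second R1 list. The naïve lists lay above both R2 lists. The median of the longest peak in a domain was 2346 and 1384 bp in naïve cells and 613 and 673 bp in R2, so that a domain of R1 appeared as several shorter peaks in the other lists.

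The mean covered share was 68.8% ± 10.5 (SD, n = 2) in naïve cells and 33.1% ± 2.19 (SD, n = 2) in R2. The difference was 35.7 percentage points, with an exact two-sided permutation p of 0.333, the smallest that 2 against 2 libraries allow. The naïve lists were also deeper than the R2 lists, and the cell type and the depth cannot be told apart here. At equal list length, with the top 20000 peaks of each list, the shares were 41.5% and 31.8% in naïve cells and 13.3% and 14.8% in R2. Equal list length does not make the depths equal, because the width of a peak also grows with depth.

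Narrower peaks of the first R1 list were covered less. In those of 2000 to under 4000 bp the mean share was 39.5% ± 10.3 (SD, n = 2) in naïve cells and 14.8% ± 1.14 (SD, n = 2) in R2, and over all autosomal peaks it was 27.9% ± 7.14 and 11.3% ± 0.791. Domains at least 20 kb wide reached 84.3% ± 6.97 and 51.5% ± 2.47, and those under 5 kb 58.9% ± 11.3 and 24.2% ± 1.75. Domains with a protein-coding start had 73.9% ± 9.05 and 40.2% ± 2.14, and those without 66.1% ± 11.3 and 29.3% ± 2.22. The order of the width classes held in each of the 4 lists, except that peaks wide in the first R1 list only lay below the narrower class in both R2 lists.

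**Figure D3:**
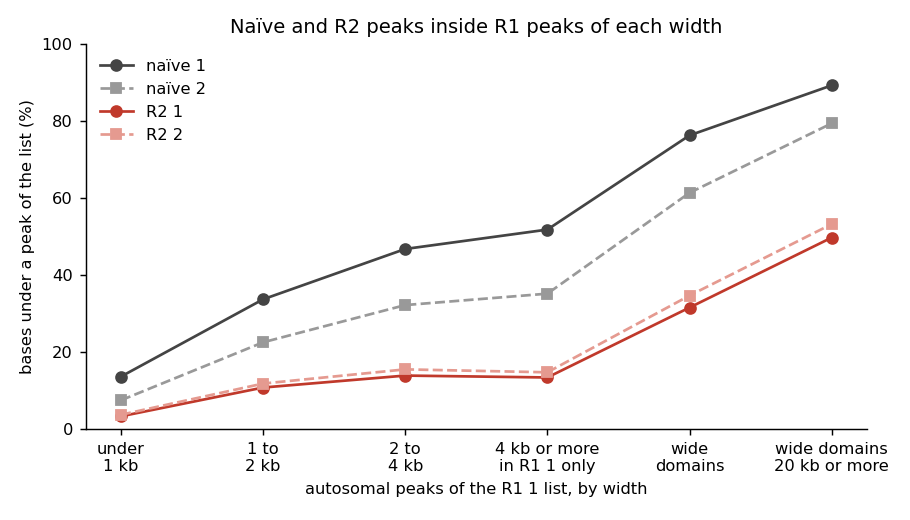
Percent of bases under a peak of each naïve and R2 list (y axis) in autosomal peaks of the first R1 list, by width class (x axis); each line is 1 library. In the wide domains the naïve lists reach 76.3% and 61.4% and the R2 lists 31.6% and 34.7%, and each list covers more of the domains than of the peaks of 2000 to under 4000 bp.

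Wide peaks of the other cells lay in the same places. Of 428 autosomal naïve peaks at least 4000 bp wide in both naïve lists, 5 lay outside the domains, and of 30 such R2 peaks none did. The R1 lists were the deepest and called the lowest densities, which favours this outcome whatever the cells. In naïve cells the longest peak of a domain reached 4000 bp in 1007 and 375 domains, and in R2 in 40 and 52.

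The height of the domains differed less than their covered length. Over the 3491 domains with a summit in all lists, the median of the highest density was 12.2 and 14.8 in naïve cells, 13.2 and 13.3 for the R1 libraries and 15.3 and 15.6 for those of R2. On the log2 scale against the first R1 library, the medians were -0.12 and 0.13 in naïve cells, 0.01 in the second R1 library and 0.24 and 0.20 in R2. Over all 23857 peaks with a summit in every list they were -0.19 and 0.04, -0.02, and 0.25 and 0.20, so the domains as a whole stood close to other peaks. In R2, 1 tag is worth 1.18 and 1.11 in density, and summits must reach the called height, which lifts the values of shallow lists. With the mean over a list's peaks in place of the highest, the sign for R2 turned, from a mean of 0.22 to -0.16.

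**Figure D4:**
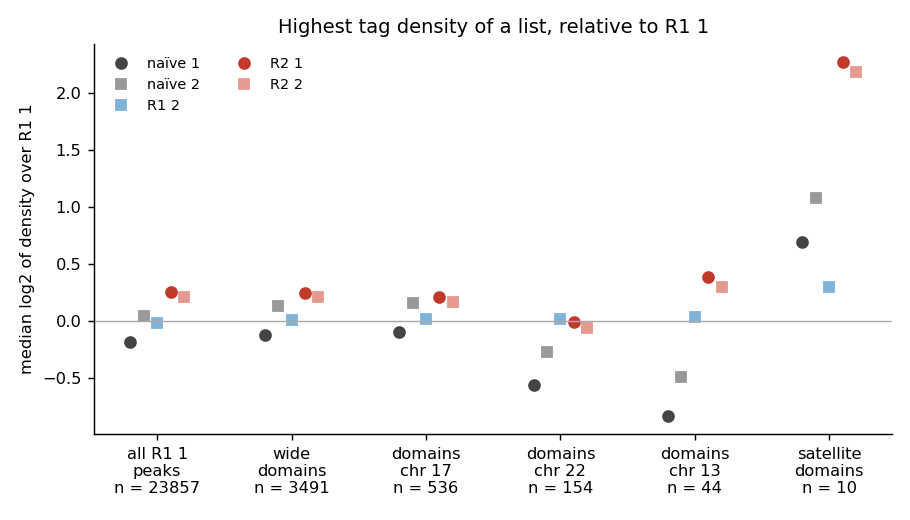
Median over domains of the log2 ratio of a list's highest tag density to that of the first R1 library (y axis, log2 scale) for all peaks, all domains, domains of 3 chromosomes and the 5-base satellite domains; each point is 1 library. On chromosome 13 the naïve libraries lie at -0.83 and -0.49 and the R2 libraries at 0.38 and 0.29.

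Chromosome 13 ran against the order of depth. Its 51 domains were covered by 29.8% and 21.9% in naïve cells and by 42.8% and 44.4% in R2, although the R2 lists were the shallowest. Of these domains, 40 were covered more in both R2 lists than in both naïve lists, the other 11 overlapped and none was covered more in both naïve lists. Elsewhere 13 of 3818 domains were covered more in both R2 lists and 3578 more in both naïve lists. Over all autosomal peaks of the first R1 list, 0.712% were covered more in both R2 lists and 12.4% more in both naïve lists. In each naïve and R2 list most of those peaks held no covered bases, which limits such calls. Among peaks of 2000 to under 4000 bp the shares were 1.80% and 66.1%. Over all domains, 53 (1.37%) were covered more in both R2 lists, 40 of them on chromosome 13. Leaving out 1 library can only raise these counts. It gave up to 107 over all domains, without the first naïve library, and 42 to 47 on chromosome 13. With the top 20000 peaks of each list the counts were 121 and 30, and with the top 50000 peaks 120 and 49.

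The chromosome 13 domains lay toward the end of the long arm. There were 46 of 51 beyond 110000001, of which 35 were covered more in R2, and the 5 between 80000001 and 110000000 were all covered more in R2. Domains were ranked by their gap, which is the lower R2 share minus the higher naïve share. The first in that order, chr13:113994501-114003395 in RASA3, an inhibitor of Ras signalling, was covered by 21.6% and 21% in naïve cells and by 51.1% and 50.2% in R2. Its highest density was 6.99 and 9.62 in naïve cells, 13.1 and 14.2 for the R1 libraries and 15.3 and 15.6 for those of R2. It was picked for its gap in covered share from domains chosen by R1 width. Higher values in R1 and R2 are therefore not a finding about it.

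Other chromosome 13 domains lay over genes of varied roles. A domain in ATP11A, a phospholipid flippase, was covered by 25.4% and 15.3% in naïve cells and by 52.9% and 51.5% in R2. A domain with the start of ZIC2, a zinc-finger factor of neural development, was covered by 34.5% and 14% and by 50.9% and 48.0%. A domain with the start of IRS2, an adaptor of insulin signalling, was covered by 57.6% and 51.02% and by 75.5% and 71.0%. These 3 were named because both R2 lists lay above both naïve lists, so that order is not a finding about them.

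Peaks of chromosome 13 made up 0.556% and 0.627% of the autosomal peaks in the naïve lists, 2.40% and 2.33% for the R1 libraries and 2.15% and 2.10% for those of R2. Over the 44 domains with a summit in all lists, the median log2 of the highest density against the first R1 library was -0.83 and -0.49 in naïve cells and 0.38 and 0.29 in R2. Among the 216 peaks of 2000 to under 4000 bp on this chromosome, 106 were covered more in both R2 lists and 4 more in both naïve lists. Over all 8114 peaks of the chromosome in the first R1 list, most of them narrow, 426 (5.25%) were covered more in both R2 lists and 52 more in both naïve lists. The other 7636 overlapped or had no coverage to compare. Whether the number of chromosome 13 copies differed between the cells was not tested.

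**Figure D5:**
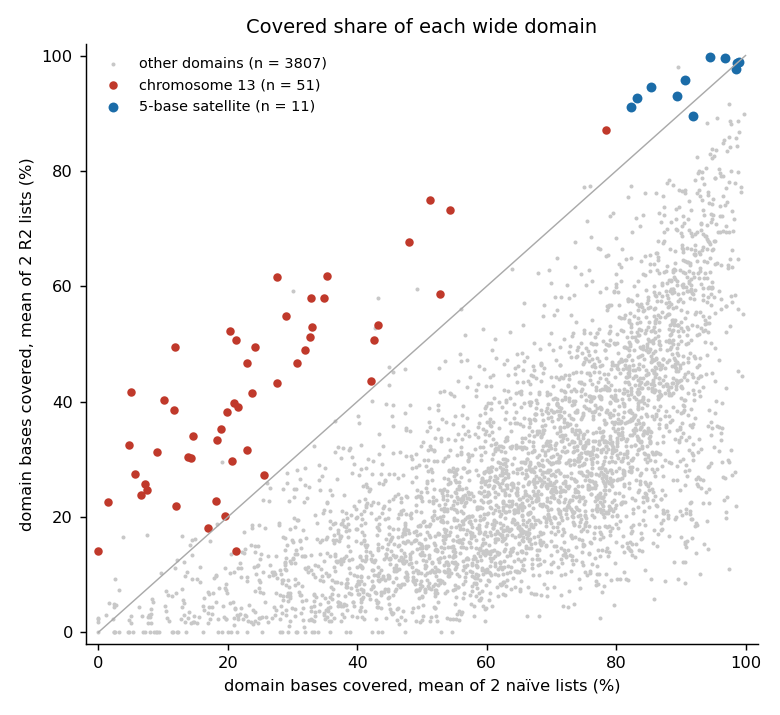
Covered share of each of the 3869 domains, as the mean of the 2 naïve lists (x axis, percent) and of the 2 R2 lists (y axis, percent); red points are the 51 domains of chromosome 13, blue points the 11 satellite domains and grey points the others, and the line marks equal shares. Most red points lie above the line and most grey points below it.

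Chromosomes 19 and 22 held the domains at the other ends of the scale. Of the 10 domains with the largest gap of naïve over R2, taken as the lower naïve share minus the higher R2 share, 9 lay on chromosome 19. The domain in AP3D1, a subunit of an adaptor complex of vesicle transport, was covered by 100% and 94.9% in naïve cells and by 10.3% and 11.7% in R2. The domain in NACC1, a BTB-domain transcription regulator, was covered by 93.5% and 87.0% and by 11.6% and 12.6%. Over all 245 chromosome 19 domains the shares were 89.4% and 76.1% in naïve cells and 25.4% and 28.5% in R2, so the naïve shares were above those of all domains and the R2 shares below.

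Of the 10 least covered domains, 7 lay on chromosome 22. The domain over GTPBP1, a GTP-binding protein, and SUN2, a protein of the inner nuclear membrane, at chr22:38736654-38741878 had no peak in any naïve or R2 list and a peak of 5225 and 5102 bp in the R1 lists. Its highest density in R1 was 6.30 and 6.62, which is above the lowest called density of both naïve lists and below that of both R2 lists. A domain with the start of SHANK3, a scaffold of excitatory synapses, was covered by 2.24% and 0% in naïve cells and by 0% and 6.12% in R2, with a highest density of 8.44 and 8.83 in R1. Over the 215 chromosome 22 domains the shares were 49.9% and 36.5% in naïve cells and 21.5% and 24.5% in R2, below those of all domains in each of the 4 lists.

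A small set of 11 domains consisted of a 5-base satellite. They held from 68.6 to 112 copies of GGAAT or its complement per kb, whereas no other domain had more than 4.51, and this split was made after the counts were seen. They lay on chromosomes 2, 4, 5, 10, 17 and 20, overlapped no protein-coding gene, and 10 of them lay within 100 kb of a gap in the assembly, as did 2.33% of the other domains. Their GC content ran from 39.99% to 44.95% and that of every other domain was at least 46.0%. Between 34.6% and 69.9% of their 31-base words occurred more than once in the genome, against a median of 2.32% over all domains. Copies within the same domain count here, so these shares do not tell repeats inside an array from copies elsewhere. Reads were kept from a mapping quality of 1, so the placement of reads in these domains is uncertain.

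The satellite domains were covered nearly whole in all cells. The share was 94.4% and 88.4% in naïve cells and 95.8% and 95.6% in R2, and in the other domains it was 76.2% and 61.3%, and 31.5% and 34.6%. Over the 10 with a summit in all lists, the median of the highest density was 83.5 and 116.9 in naïve cells, 53.4 and 63.9 for the R1 libraries and 241.7 and 212.5 for those of R2. The 3 cell types did not overlap, with R1 lowest and R2 highest. The libraries stood in the exact reverse order of their background rates, so cell type and depth cannot be told apart here. In the domain at chr5:49656247-49661893 the highest density was 596 and 808 in naïve cells, 280 and 365 for the R1 libraries and 1560 and 1420 for those of R2.

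A few other domains were repeats or lay outside this order. In the domain at chr22:16562503-16568540, 63.7% of the 12-base words were repeated within 500 bp, most often at a spacing of 26 bp. It was covered by 28.8% and 31.3% in naïve cells and by 61.8% and 56.4% in R2. Of the 13 domains outside chromosome 13 that were covered more in both R2 lists, 6 were satellite domains. The others included domains over DNMT3A, a de novo DNA methyltransferase, with 21.5% and 16.8% in naïve cells and 35.4% and 23.7% in R2, and over POU3F2, a neural POU factor, with 0% and 7.60%, and 20.2% and 13%. At least 10% of the 31-base words were multi-copy in 362 domains (9.36%), compared with 12.98% of peaks of 2000 to under 4000 bp. The median share of multi-copy words went the other way, with 2.32% in domains and 0.838% in those peaks.

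Some genes of neuroblastoma cell states had their start in a domain. Adrenergic neuroblastoma cells express the enzymes of catecholamine synthesis and the factors that drive them, and mesenchymal cells resemble neural crest precursors. Of 23 adrenergic genes 4 had a start in a domain, TH, DBH, GATA2 and TBX2, and of 37 mesenchymal genes 2 did, NOTCH1 and EGR3, against 7.64% of all protein-coding genes. The TH domain, chr11:2143798-2183824, also held the starts of IGF2 and INS and was 40027 and 31229 bp wide in R1. TH encodes tyrosine hydroxylase, the rate-limiting enzyme of catecholamine synthesis, and its domain was covered by 87.0% and 64.7% in naïve cells and by 39.8% and 37.7% in R2.

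The TBX2 domain, at a T-box factor of the adrenergic circuit, was 19892 and 19891 bp wide in R1. It was covered by 95.4% and 89.5% in naïve cells and by 50.2% and 55.9% in R2. The domain of GATA2, a zinc-finger factor of sympathetic neurons, was covered by 72.7% and 62.1% and by 21.3% and 36.0%. The domain of DBH, which turns dopamine into noradrenaline, was covered by 60.9% and 39.5% and by 10.5% and 14.6%. In all 4 the naïve lists lay above the R2 lists, as in 92.5% of the domains.

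Immediate-early genes, which respond to growth signals without new protein synthesis, had 7 of 38 starts in a domain, JUNB, EGR1, EGR3, IER2, IER3, DUSP4 and TRIB1, which is 18.4% against 7.64% of all protein-coding genes. The JUNB domain was 4764 and 4571 bp wide in R1 and was covered by 97.8% and 85.2% in naïve cells and by 57.7% and 58.3% in R2. The domain of EGR1, a zinc-finger factor, was covered by 74.5% and 80.4% and by 56.6% and 61.3%. Of 18 AP-1 factors, JUNB and the small MAF genes MAFG and MAFK had a start in a domain (16.7%), and the MAFG domain was covered by 95.7% and 97.5% and by 86.2% and 84.5%.

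Of 29 genes of the YAP, TAZ and TEAD list only TEAD3 had a start in a domain, and of 32 cell cycle genes only CCND1, which encodes cyclin D1. The CCND1 domain was 8045 and 5663 bp wide in R1 and was covered by 58.4% and 63.4% in naïve cells and by 32.3% and 17.7% in R2. HOX genes had 3 of 39, HOXA9, HOXA13 and HOXC9, cytoskeleton and housekeeping genes 3 of 32, ACTG1, GAPDH and CFL1, and the splicing list 2 of 34, PRPF6 and PTBP1. As shares these were 7.69%, 9.38% and 5.88%, close to the 7.64% of all protein-coding genes, and the YAP and cell cycle lists had 3.45% and 3.12%. RBM39 and DCAF15 had no start in a domain. None of 62 replication-dependent histone genes and none of 15 abundant nuclear long noncoding RNAs had one, against 4.22% of all long noncoding RNA genes.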

How the data were processed

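ATAC-seq peak lists of SK-N-AS tumour-derived cells were used, 1 per library. As the methods state, the authors aligned reads with BWA 0.7.12-r1039, marked duplicates with Picard 1.65, kept reads of mapping quality 1 or more with SAMtools 1.3.1, dropped mitochondrial reads, shifted read ends for Tn5 by 4 bp on the plus and 5 bp on the minus strand, and ran MACS2 2.2.7.1 on each library (q 0.01, reads extended to 200 bp, shift 100 bp); versions of BWA and MACS2 are from the submitters' processing notes. The deposited values are a fold over background (a ratio), the −log10 of a p-value and a q-value, and a score that the authors' caller derives from q. The methods name hg19 and the notes hg19 and hg38; the coordinates were read on hg38 with GENCODE 44.

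A deposited fold is the pileup plus 1 over the background rate plus 1, so the common step of the folds in a list gives its rate. Every fold lay on the step, and every checked p was the Poisson tail at that rate. Overlap meant at least 1 shared base. Words of 31 bases were counted over the genome on both strands, and words of 12 bases repeated within 500 bp were called local. Windows of 100 kb with at least 90% called bases were used for GC. Overlap, joining and rate recovery were checked against BEDTools 2.31.1 and on simulated data. Software was Python 3.11.15 with numba 0.67.0, pandas 2.3.3 and NumPy 2.4.6. Depth is given as the background rate.

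Members, gene lists and the rule for named domains (the 10 widest, best and least covered, the 10 with the largest gaps between naïve and R2 in each direction, the 5 most multi-copy, those nearest the width limit and those with a listed start) were chosen with earlier results of these data known, a shift of chromosome 13 included, so that shift has no independent support here. Host genes, chromosome 17 windows, motifs, satellite and chromosome 13 splits were chosen after values were seen. The alternatives were other width limits, overlaps, peak thresholds, list lengths and left-out libraries. The authors' merged peaks were not used here. Some named items are not reported here.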

Additional observations from a re-analysis of the deposited data

Results flagged for a closer look

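A signal outside the domains was seen in 5 autosomal places where both naïve lists had a peak at least 4000 bp wide and no wide domain was present. They lay over MIDN and CIRBP, MATK and PTPRS, in a stretch with no protein-coding gene, all on chromosome 19, and over FLNC on chromosome 7. The naïve peaks over MATK, a kinase, were 6527 and 6542 bp wide, and the longest peak of the first R1 list there was 6553 bp with no wide partner in the second R1 list. The naïve peaks over FLNC, which encodes a filamin, were 5169 and 4084 bp wide, and the longest peak of the first R1 list there was 3406 bp. Of the 5 places, only 1, over FLNC, lay outside every peak at least 4000 bp wide of the first R1 list. The others missed the rule because the second R1 list had no wide partner there. The naïve lists were shallower than the R1 lists.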

How the results depend on the processing

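The number of domains, 3869, was 6526 and 2511 at width limits of 3000 and 5000 bp, 8966 when peaks within 500 bp were joined first, and between 4390 and 5933 when 1 R1 library was left out. The mean covered share in naïve cells, 68.8%, was 36.6% with the top 20000 and 56.2% with the top 50000 peaks of each list, and from 61.4% to 76.3% without 1 library. That in R2, 33.1%, was 14.1% and 27.5% with those lists, 26.7% when peaks below 5 in −log10 q were dropped, 35.6% over bases shared by both R1 peaks, and 29.7% and 36.2% at the width limits of 3000 and 5000 bp; it was 31.6% to 34.7% without 1 library. The naïve minus R2 difference kept its sign throughout, from 22.6 to 43.1 points. With the replicate number as a block it was 35.7 points with an exact sign-flip p of 0.5, the smallest that 2 pairs allow; the labels do not say that a number pairs libraries. The share of domains with a start, 42.0%, was 44.5% within 1000 bp, 30.0% for protein-coding genes only, and 36.9% and 46.4% at width limits of 3000 and 5000 bp. With the mean over a list's peaks in place of the highest, the log2 density against R1 was -0.44 in place of 0.0051 in naïve cells and -0.16 in place of 0.22 in R2, where the sign turned. The number of domains covered more in both R2 lists, 53, was 121 and 120 with the top 20000 and top 50000 peaks and 57 to 107 without 1 library; on chromosome 13, 40 domains became 30 to 49. These 2 counts were added after seeing the data, and leaving out a library can only raise them. Depth limits what an uncovered base means: in R2 the lowest summit of a called peak had a density of about 7.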
